A study of Mus musculus with 8 samples.

Results

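Hmga2, Hmga1, Igf2bp1, Igf2bp2, Igf2bp3 and Lin28b were followed in bleomycin-injured mouse lung with and without Slc15a3. These 6 genes are known as oncofetal genes and as targets of the let-7 microRNAs. They were taken by symbol from 18824 genes in the table, and were chosen with the values of this same comparison in view, so their levels, and whether the fit called them, are given only as a description. The series concerns SLC15A3, a transporter that carries histidine and small peptides out of endosomes and lysosomes, in pulmonary fibrosis. The KO_BLM group held 4 lung libraries of Slc15a3-/- mice and the WT_BLM group 4 of WT mice. All mice were 8 weeks old, received 2 mg/kg of bleomycin (BLM), a DNA-breaking drug that scars rodent lung, in 50 µl of saline through the trachea, and were killed on day 21. The knockout is described by genotype only, with no Cre or promoter named. Lungs given saline alone were not analysed here, so no value says what bleomycin itself did. Whether each library is its own animal is not stated, so errors and p-values measure only how these samples vary, some of which may be technical.

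Hmga2 was the gene of the 6 with the largest difference. It was near the limit of counting in KO_BLM lungs, at 0.161 ± 0.0725 CPM (counts scaled to a library of 1e+06), against 6.74 ± 3.52 CPM in WT_BLM lungs (SD, n = 4 each). Hmga1 was at 24.4 ± 4.89 CPM in KO_BLM and 50.3 ± 10.9 CPM in WT_BLM. The IGF2BP genes differed less, and Lin28b was at or near 0 in both groups. Of the 6 genes, 4 passed the filter on low counts, and 2 of these, Hmga2 and Hmga1, were called lower in KO_BLM by the edgeR quasi-likelihood fit at an adjusted p under 0.05, where 20.8% of 14746 tested genes were called lower and 41.5% in either direction. Since the genes were picked on this contrast, nothing is read from that count. Hmga2 passed the filter through WT_BLM alone.

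Let-7 is a family of microRNAs that rises as embryonic tissue matures. It pairs through its seed, bases 2 to 8, with sites in the 3′ untranslated region (UTR) of messenger RNAs and lowers their stability and translation. LIN28A and LIN28B bind let-7 precursors and block their maturation. HMGA2 and HMGA1 are small proteins with AT-hooks that bind the minor groove of AT-rich DNA and alter chromatin. IGF2BP1, IGF2BP2 and IGF2BP3 bind messenger RNAs, among them that of Igf2, and affect their stability, location and translation. Most of these genes are high in the embryo, low in adult tissue and switched on again in many tumours, and HMGA2 is also known to be induced by TGF-beta in epithelial cells. The libraries were made from polyadenylated RNA, so mature let-7 was not measured.

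The let-7 sequences are shown first because their shared seed defines the target sites below. RefSeq (GRCm38.p6) lists 12 loci giving 10 distinct mature 5′-arm names with the seed GAGGUAG, and let-7j, which carries GAGGUAU instead. Capitals mark the seed.
let-7a-5p: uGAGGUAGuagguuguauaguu
let-7g-5p: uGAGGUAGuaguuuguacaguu
miR-98-5p: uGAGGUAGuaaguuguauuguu
let-7j: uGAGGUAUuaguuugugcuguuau

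The sites of the 6 genes were searched on the transcript strand in the longest annotated 3′ UTR of each (GENCODE M21, GRCm38, the assembly that mm10 names). A 7-base match is CTACCTC, which pairs with the seed, and an 8-base match is CTACCTCA, so every 8-base match is also counted as a 7-base match. Other forms, such as TACCTCA after a base other than C, were not searched. A gene without a match may still hold those. Each of the 6 genes held a 7-base match and 5 held an 8-base match, all but Hmga1. Across 21661 genes with a 3′ UTR, 8.67% held a 7-base match and 2.93% an 8-base match. Hmga2 had 4 matches in 3014 bases, and 12 genes in all had 4 or more. Its sites are shown, each with the bases before it and the match in capitals, because Hmga2 differed most and because their distance apart shows that they are separate sites. They begin at positions 58, 1295, 1733 and 2591 of the UTR on the minus strand, and the first is the 8-base match.
Hmga2 site 1 (chr10:120364224-120364253): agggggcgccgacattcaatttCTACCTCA
Hmga2 site 2 (chr10:120362988-120363017): gcaataatccccactcctcaataCTACCTC
Hmga2 site 3 (chr10:120362550-120362579): tggacttcctgatttgcaaggaaCTACCTC
Hmga2 site 4 (chr10:120361692-120361721): tgttgtacaatcaaaacacactaCTACCTC

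Igf2bp1 had 3 of its 4 matches as 8-base matches, the most among the 6 genes, in a UTR of 6337 bases. These are shown for contrast with Hmga2, because Igf2bp1 had more of the longer matches and a smaller difference between the groups. They lie on the minus strand.
Igf2bp1 site 1 (chr11:95961778-95961807): aggcagtgctgtgcgaagtaaaCTACCTCA
Igf2bp1 site 2 (chr11:95959357-95959386): tgggaaccagcagtgctattaaCTACCTCA
Igf2bp1 site 3 (chr11:95958763-95958792): actacgagtataaatggatgaaCTACCTCA

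The remaining genes had fewer of the longer matches, and the first site of each is shown so that the shared core can be compared. Lin28b had 4 matches in 4445 bases, Igf2bp2 a lone match in 1784 bases, Igf2bp3 a lone match in 2119 bases and Hmga1 a lone match in 1183 bases. Hmga1 is on the plus strand and the others on the minus strand. The bases outside the capitals differ from gene to gene. A match is a description of the letters and does not show that let-7 acted there.
Lin28b site 1 (chr10:45381022-45381051): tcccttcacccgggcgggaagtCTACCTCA
Igf2bp2 site 1 (chr16:22059473-22059502): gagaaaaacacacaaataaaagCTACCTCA
Igf2bp3 site 1 (chr6:49086787-49086816): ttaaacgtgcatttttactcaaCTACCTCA
Hmga1 site 1 (chr17:27563269-27563298): ccatcttctcctctgttcacaaaCTACCTC

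The libraries held between 17627999 and 18471445 counts each in KO_BLM and between 18878835 and 20180831 in WT_BLM. Slc15a3 had 8, 5, 18 and 15 counts in KO_BLM replicates 1 to 4, against 935, 1124, 974 and 841 in WT_BLM replicates 1 to 4, which fits the labels. Lung markers were abundant, with 8 markers of surfactant-producing type 2 alveolar cells summing to between 22280 and 34695 CPM in KO_BLM and between 8552 and 12439 CPM in WT_BLM. These are bulk libraries, in which fewer cells of a type and less RNA per cell cannot be told apart. Of the tested genes 3057 were higher and 3061 lower in KO_BLM, so 50.0% of calls were higher. With library totals alone in place of TMM scaling 62.7% of calls were higher.

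LIN28 genes, which hold let-7 processing back, were at the floor of detection. Lin28b (chr10:45376617-45486314) had 0 counts in each of the 4 KO_BLM libraries, and 0, 1, 1 and 0 counts in WT_BLM replicates 1 to 4. A count of 0 over the KO_BLM libraries allows a level of up to 0.0403 CPM, taking 3 counts as the limit, so no difference was detectable at this depth. Its paralog Lin28a had 1, 3, 3 and 2 counts in KO_BLM, against 1, 1, 0 and 0 counts in WT_BLM replicates 1 to 4. The scaled ratio of KO_BLM to WT_BLM was 4.56, with an exact counting interval of 0.943 to 43.3, and neither gene passed the filter. Intervals of this kind cover counting error only.

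Among genes that make, load and degrade let-7, 16 of 18 listed were tested. Of these 0 were called higher and 2 lower, where 20.7% of all tested genes were called higher and 20.8% lower, and the median log2 fold change was −0.05, beside 0.00 over all tested genes. At an unadjusted p under 0.05 the edgeR fit had 0 higher and 4 lower. DESeq2 called 0 higher and 4 lower, and with library totals alone 1 was higher and 1 lower. The genes called lower were Ran (log2 fold change −0.39, SE 0.09, adjusted p = 0.00807 by edgeR), the GTPase that powers export of precursors by exportin 5, and Dis3l2 (−0.37, SE 0.11, adjusted p = 0.0259), the exonuclease that degrades let-7 precursors tailed with uridines. Dis3l2 was not called without KO_BLM replicate 2 or 4, without WT_BLM replicate 3 or 4, with the replicate number as a block (adjusted p = 0.0561), or on library totals or FPKM, over a range of adjusted p up to 0.0746. Dicer1, which cuts the precursors, had 70.1 ± 3.73 CPM in KO_BLM and 76.0 ± 9.54 CPM in WT_BLM (SD, n = 4 each) and was not called. Drosha, Dgcr8 and Tut4, which cut and tail the precursors, were not called either, with log2 fold changes of 0.11, −0.15 and 0.05.

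Hmga2 (NCBI Gene 15364, chr10:120361268-120476469) had 2, 3, 5 and 2 counts in KO_BLM replicates 1 to 4, against 84, 60, 195 and 164 counts in WT_BLM replicates 1 to 4. In CPM these were 0.110, 0.167, 0.261 and 0.104 in KO_BLM, against 4.62, 2.97, 10.4 and 8.93 in WT_BLM. The groups lay far apart, and the lowest WT_BLM library was 11.4-fold above the highest KO_BLM library. Within WT_BLM, replicates 3 and 4 were above replicates 1 and 2, with a 3.51-fold span. Pooled over libraries, WT_BLM was 41.4-fold above KO_BLM, with an exact counting interval of 23.5 to 80.7, and the fitted log2 fold change was −5.33 (SE 0.53). Only 6 of the 14746 tested genes had a lower log2 fold change. The KO_BLM level rests on 12 counts over 4 libraries, so its order within KO_BLM carries no weight.

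Hmga1 (NCBI Gene 15361, chr17:27556574-27563672), the relative of Hmga2 that many adult tissues express, stayed well above the floor in both groups. It had 19.1, 22.8, 30.7 and 24.9 CPM in KO_BLM replicates 1 to 4, against 43.9, 40.2, 52.4 and 64.7 CPM in WT_BLM replicates 1 to 4. The groups did not overlap, and the gap between the highest KO_BLM and the lowest WT_BLM library was 1.31-fold. The log2 fold change was −1.05 (SE 0.18), 2.06-fold lower in KO_BLM. Hmga1b, a near-identical copy on chromosome 11, was at 2.43 ± 0.636 CPM in KO_BLM and 5.70 ± 1.57 CPM in WT_BLM (SD, n = 4 each). Reads can be shared between the copies, so the split between Hmga1 and Hmga1b is uncertain. AI413582, which overlaps Hmga1 on the opposite strand, had a log2 fold change of −0.11 (SE 0.13) and was not called.

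Igf2bp2 (NCBI Gene 319765, chr16:22059009-22163299), the family member best known in adult tissue, had 16.5, 16.9, 16.2 and 19.3 CPM in KO_BLM replicates 1 to 4, against 24.0, 15.5, 21.5 and 37.0 CPM in WT_BLM replicates 1 to 4. The groups overlapped, since WT_BLM replicate 2 lay below every KO_BLM library. The log2 fold change was −0.51 (SE 0.22), and the gene was not called. It was −0.24 without WT_BLM replicate 4 and −0.68 without WT_BLM replicate 2, where the gene was called.

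Igf2bp1 (NCBI Gene 140486, chr11:95957163-96005944) had 3.96, 3.63, 4.17 and 3.54 CPM in KO_BLM, against 4.45, 4.26, 4.50 and 7.89 CPM in WT_BLM, in replicates 1 to 4. The groups did not overlap, but only by 1.02-fold, and WT_BLM replicate 4 alone stood well above KO_BLM. The log2 fold change was −0.46 (SE 0.23), or −0.20 without WT_BLM replicate 4, and the gene was not called.

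Igf2bp3 (NCBI Gene 140488, chr6:49085218-49215469) had 3, 11, 13 and 7 counts in KO_BLM, against 7, 8, 7 and 16 counts in WT_BLM, in replicates 1 to 4. The groups overlapped throughout. The scaled ratio of KO_BLM to WT_BLM was 0.906, with an exact counting interval of 0.553 to 1.48, and the gene did not pass the filter. Malsu1, which overlaps it on the opposite strand, fell (log2 fold change −0.53, SE 0.15, adjusted p = 0.0176 by edgeR), and whether reads are shared was not tested. The direction of Igf2bp3 is not settled: the log2 ratio was −0.14 over all libraries, 0.24 without WT_BLM replicate 4 and 0.13 without KO_BLM replicate 1.

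**Figure D1:**
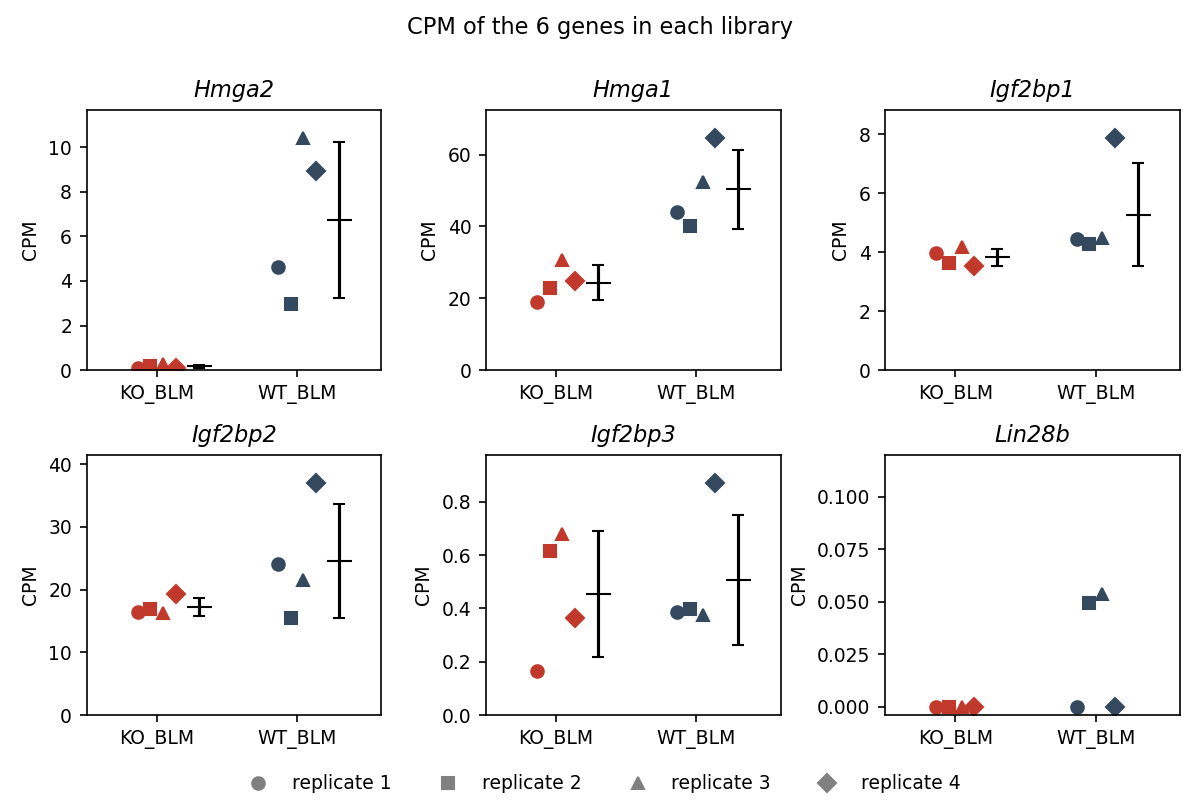
CPM (vertical axis, from 0) of the 6 genes in each KO_BLM and WT_BLM library, with marker shape giving the replicate number and bars the mean and SD of 4 libraries (no bar for Lin28b). Hmga2 lies between 0.104 and 0.261 CPM in KO_BLM and between 2.97 and 10.4 CPM in WT_BLM, and WT_BLM replicate 4 is the highest library for Hmga1 and all 3 IGF2BP genes.

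In all, 3 of the 6 genes had groups that did not overlap, all lower in KO_BLM. Over all tested genes this share was 40.9% in either direction and 20.7% lower in KO_BLM. The genes were picked on this contrast and 2 of the 6 were not tested, so nothing is read from that count. WT_BLM replicate 4 was the highest library for Hmga1, Igf2bp1, Igf2bp2 and Igf2bp3. For Igf2bp1 it had 7.89 CPM, against 4.40 ± 0.125 CPM in the other WT_BLM libraries (SD, n = 3), 1.79-fold higher. For Igf2bp2 it was 1.82-fold, for Igf2bp3 2.26-fold and for Hmga1 1.42-fold above the mean of those libraries. The spread of Igf2bp1 and Igf2bp2 was correspondingly unequal, with a coefficient of variation of 7.64% and 8.32% in KO_BLM, against 33.1% and 37.0% in WT_BLM. The same library had the lowest summed level of cycling cell markers in WT_BLM, at 213 CPM, and the highest of transitional alveolar markers, at 2616 CPM. These were not particular. It was also lowest for activated fibroblast (6155 CPM), endothelial (2342 CPM) and lymphocyte (22.4 CPM) markers. It was highest for resident fibroblast (1983 CPM), alveolar type 2 (12438.5 CPM) and alveolar type 1 (5395 CPM) markers, and neither for recruited macrophage and airway markers. The part of any of these in the IGF2BP levels was not tested.

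Compared per length, the order of the genes was not the same in both groups. As FPKM (counts scaled to gene length and to library size), the KO_BLM levels were 12.5 ± 2.70 for Hmga1, 4.56 ± 0.487 for Igf2bp2, 0.470 ± 0.0341 for Igf2bp1, 0.0827 ± 0.0428 for Igf2bp3 and 0.0434 ± 0.0198 for Hmga2 (SD, n = 4). In WT_BLM they were 24.2 ± 4.69 for Hmga1, 6.06 ± 2.06 for Igf2bp2, 1.71 ± 0.893 for Hmga2, 0.607 ± 0.183 for Igf2bp1 and 0.0858 ± 0.0384 for Igf2bp3 (SD, n = 4). Hmga2 thus had the lowest mean of the 5 detected genes in KO_BLM and the third highest in WT_BLM. Its FPKM range overlapped that of its neighbour in each order, Igf2bp3 in KO_BLM and Igf2bp1 in WT_BLM. Within each WT_BLM library Hmga2 was above Igf2bp1, at 1.16, 0.779, 2.71 and 2.19 FPKM against 0.509, 0.508, 0.531 and 0.881 in replicates 1 to 4. Within each KO_BLM library it was below Igf2bp3, at 0.0289, 0.0446, 0.0709 and 0.0291 FPKM against 0.0291, 0.110, 0.124 and 0.0683. The KO_BLM values rest on few counts, and these orders were not tested. Lin28b was listed at 0 in KO_BLM and at no more than 0.00529 FPKM in WT_BLM.

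Activated fibroblasts make much of the matrix in scarred lung, and their markers moved with Hmga2. All 9 markers of activated fibroblasts fell, where 20.8% of all tested genes were called lower. Their summed level was 2064 to 2437 CPM in KO_BLM and 6155 to 6964 CPM in WT_BLM, and none was at 0 over a group. Col1a1, a chain of type I collagen, was at 441 ± 25.7 CPM in KO_BLM and 2426 ± 291 CPM in WT_BLM (SD, n = 4 each; log2 fold change −2.46, SE 0.11, adjusted p = 1.35e-06 by edgeR). Cthrc1, a secreted protein of scar-forming fibroblasts, had a log2 fold change of −2.96 (SE 0.14, adjusted p = 1.62e-06 by edgeR) and Acta2, smooth muscle actin, of −1.25 (SE 0.09, adjusted p = 1.76e-05). Within WT_BLM the order was not shared: the marker sum was 6964, 6516, 6644 and 6155 CPM in replicates 1 to 4, while Hmga2 was highest in replicates 3 and 4. The part of these cells in the Hmga2 level was not tested.

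Set against Col1a1 in the same library, the HMGA genes went opposite ways. Hmga2 had 0.255, 0.385, 0.624 and 0.218 CPM per 1000 CPM of Col1a1 in KO_BLM replicates 1 to 4, against 1.79, 1.36, 3.79 and 4.10 in WT_BLM replicates 1 to 4. The means were 0.370 ± 0.183 in KO_BLM and 2.76 ± 1.39 in WT_BLM (SD, n = 4 each), and the groups did not overlap. Hmga1 had 55.5 ± 12.6 CPM per 1000 CPM of Col1a1 in KO_BLM and 21.0 ± 5.86 in WT_BLM (SD, n = 4 each), again without overlap. So Hmga2 was lower in KO_BLM by more than Col1a1 was, and Hmga1 by less. The direction for Hmga1 depends on the marker: it was 2.06-fold lower in KO_BLM, while among the other activated fibroblast markers Fap was 1.80-fold and Postn 1.33-fold lower. Hmga2 was 40.2-fold lower, and Lrrc15, the lowest of the 9 markers, was 26.8-fold lower. Their order is not settled. The counting intervals of the pooled ratio of WT_BLM to KO_BLM overlapped, at 23.5 to 80.7 for Hmga2 and 17.4 to 46.0 for Lrrc15. Fap and Postn are named after their values were seen. Both ratios use the contrast the genes were chosen on and are given without a test.

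**Figure D2:**
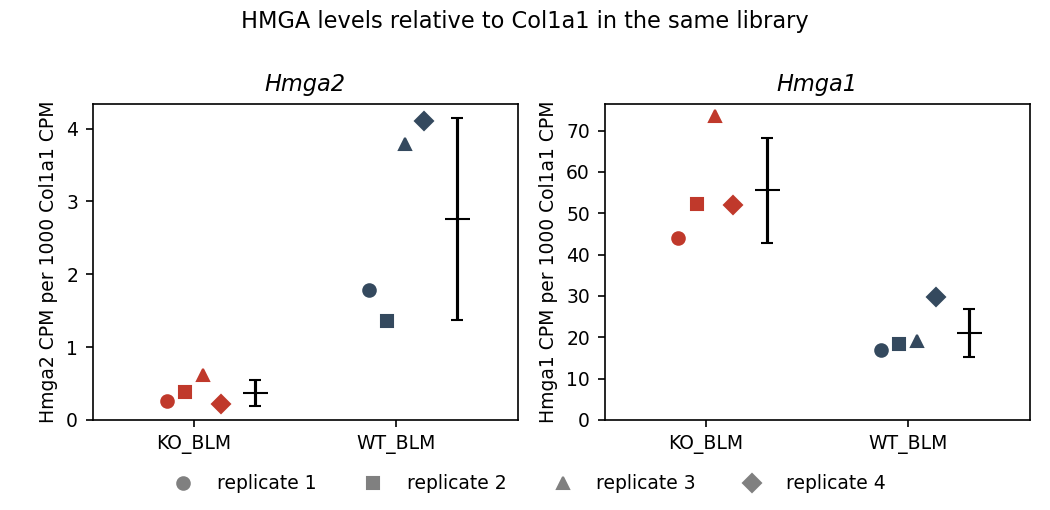
CPM of Hmga2 and of Hmga1 per 1000 CPM of Col1a1 in the same library (vertical axes, from 0) in KO_BLM and WT_BLM, with marker shape giving the replicate number and bars the mean and SD of 4 libraries. For Hmga2 the KO_BLM libraries lie below the WT_BLM libraries, and for Hmga1 they lie above.

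Other cell markers also differed between the groups. The counts called are to be read beside all tested genes, of which 20.8% were called lower and 20.7% higher. Of 14 cycling cell markers 8 fell and 0 rose, among them the mitotic cyclin Ccnb1 (log2 fold change −1.23, SE 0.26, adjusted p = 0.00514 by edgeR), with summed levels of 191 to 248 CPM in KO_BLM and 213 to 444 CPM in WT_BLM that overlapped. Of 9 markers of a transitional alveolar state 7 fell, and the sums were 1199 to 1592 CPM in KO_BLM and 2141 to 2616 CPM in WT_BLM. Of 9 recruited macrophage markers 8 fell, with sums of 459 to 2634 CPM in KO_BLM and 5723 to 6536 CPM in WT_BLM, and 5 were called without KO_BLM replicate 2, without WT_BLM replicate 1, 3 or 4, or with no filter on low counts. The KO_BLM libraries were not uniform here, at 459, 636, 2577 and 2634 CPM in replicates 1 to 4. Their airway sums were 23277, 23028, 11691 and 13770 CPM in the same order. Lymphocyte sums, at 191, 209, 298 and 181 CPM, did not split that way. Limma on FPKM called 5 of the cycling markers lower, and edgeR without WT_BLM replicate 4 called 12 lower. In the other direction, 7 of 9 resident fibroblast markers rose and 1 fell, the fall being lost with library totals alone, on FPKM and without KO_BLM replicate 2. Of the rest, 7 of 8 alveolar type 2 markers rose, all 8 lymphocyte markers rose and all 6 airway markers rose. Of 6 alveolar type 1 markers 3 rose and 0 fell, although DESeq2, and edgeR without KO_BLM replicate 3, called 1 lower. Of 6 endothelial markers 4 rose and 1 fell, but 2 rose without KO_BLM replicate 1 or 2 or WT_BLM replicate 1, and 1 without WT_BLM replicate 3. The part of any of these cells in the levels of the 6 genes was not tested.

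Of 30 other known let-7 targets 28 were tested, of which 13 fell, 2 rose and 13 were not called, where 20.8% of all tested genes were lower and 20.7% higher, and the median log2 fold change was −0.27, beside 0.00 over all tested genes. The list was written with earlier results of these data known. Thbs1, thrombospondin 1, an activator of latent TGF-beta, was at 212 ± 68.1 CPM in KO_BLM and 1158 ± 216 CPM in WT_BLM (SD, n = 4 each; log2 fold change −2.45, SE 0.22, adjusted p = 5.08e-05 by edgeR). Myc, a transcription factor of cell growth, was at 14.2 ± 2.75 CPM in KO_BLM and 58.1 ± 12.7 CPM in WT_BLM (SD, n = 4 each; −2.03, SE 0.18, adjusted p = 4.86e-05). The rises were Arid3b, a DNA-binding protein of embryonic tissue (1.04, SE 0.13, adjusted p = 0.000414 by edgeR), and E2f2, a cell cycle transcription factor (0.63, SE 0.12, adjusted p = 0.00249). On library totals or FPKM 9 fell and 4 rose, and without WT_BLM replicate 3, 12 fell and 4 rose.

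The direction thus varied among the listed targets. Nras, a growth-signalling GTPase, fell (log2 fold change −0.34, SE 0.09, adjusted p = 0.014). Tgfbr1, the type I TGF-beta receptor, fell (−0.52, SE 0.13, adjusted p = 0.00951 by edgeR), while the growth factor receptors Igf1r (−0.10, adjusted p = 0.464) and Insr (0.01, adjusted p = 0.935) were not called. These 4 were picked for their roles after their values were seen. In the annotated UTRs 18 of the 28 tested targets held a 7-base match, and of these 9 fell and 2 rose, with a median log2 fold change of −0.32. Of the 10 without a match 4 fell and 0 rose, with a median of −0.22. Thbs1 and Myc, with the smallest p of the list, were among those without these letters.

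**Figure D3:**
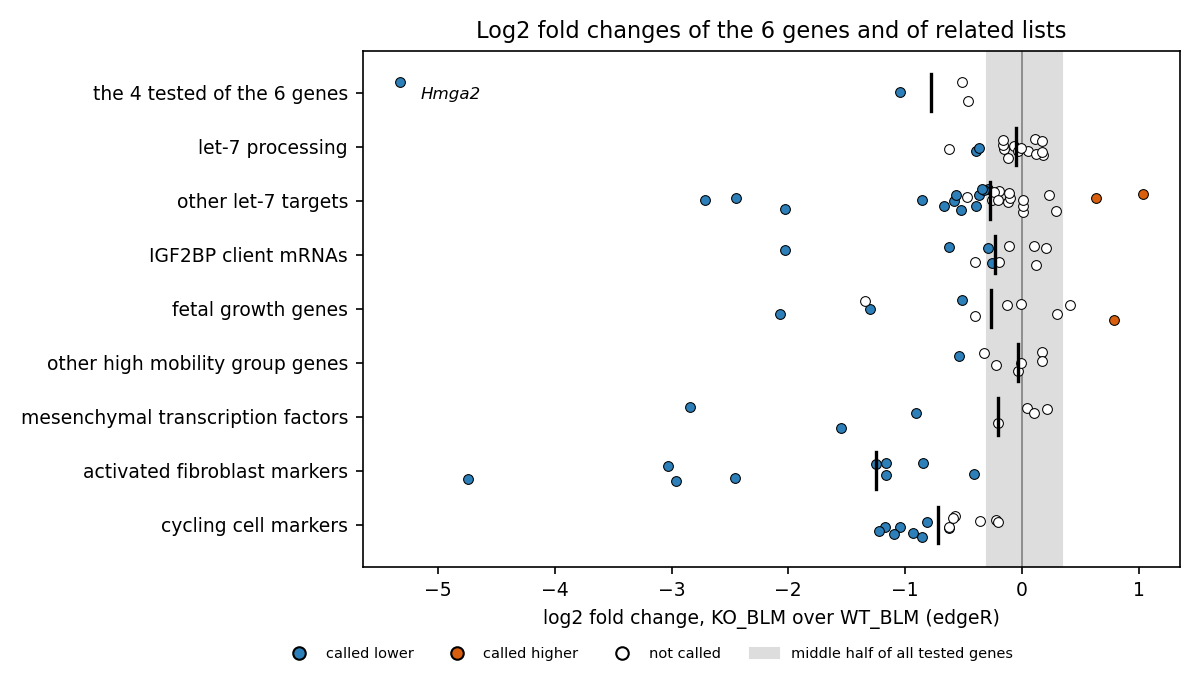
Log2 fold change of KO_BLM over WT_BLM (horizontal axis) for the 4 tested genes of the 6 and for the tested genes of 8 lists, with points coloured by call, black bars at medians and a grey band for the middle of all tested genes. Hmga2 lies at −5.33 (SE 0.53), below every gene of the lists, but its order against Lrrc15 at −4.74 (SE 0.31) is not settled. The let-7 processing genes centre on −0.05, with 1 called higher on library totals alone.

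Genes with a 7-base let-7 seed match, as defined above, had a slightly lower median log2 fold change than genes without one. Of 14352 tested genes with a 3′ UTR, the 6 genes left out, 1470 held a 7-base match, and their median log2 fold change was −0.04, against 0.01 for 12882 genes without it. Of genes with a match 24.6% were called lower and 18.4% higher, against 20.6% lower and 21.0% higher without it. Genes with 2 or more matches (181) had a median of −0.09, and genes with 3 or more (23) of −0.21, of which 5 were called lower and 3 higher. The share called lower did not follow the medians, at 24.3% with 2 or more matches and 21.7% with 3 or more. The 24 genes with 2 or more 8-base matches had a median of −0.15, and 12.5% were called lower and 8.33% higher. UTR length rose with the number of 7-base matches, with a median of 1022 bases without a match, 2316 with a match and 3550 with 2 or more. Its part in these values was not tested.

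**Figure D4:**
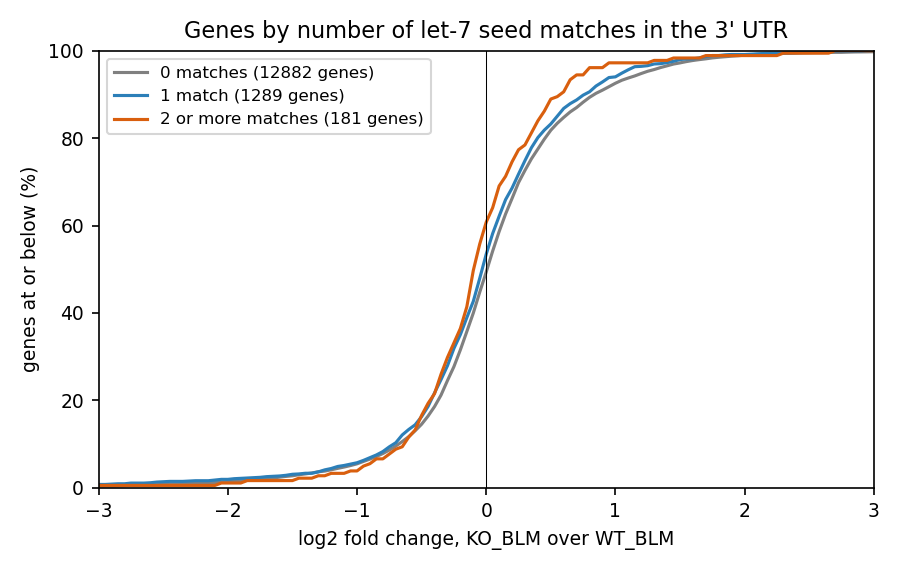
Percent of genes (vertical axis) at or below each log2 fold change of KO_BLM over WT_BLM (horizontal axis), for tested genes with 0, 1 and 2 or more 7-base let-7 seed matches in the longest annotated 3′ UTR. At a log2 fold change of 0 the curves stand at 60.8% for 2 or more matches, 53.5% for 1 match and 49.4% for 0 matches, and at 0.5 they stand at 89.0%, 83.2% and 81.8%.

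Messenger RNAs that IGF2BP proteins are known to bind were called about as often, in either direction together, as all tested genes (41.5%). All the calls were lower, where 20.8% of all tested genes were called lower and 20.7% higher. The list is short and was written with earlier results known, so nothing is read from this count. Of 10 tested, edgeR called 4 lower and 0 higher (5 and 0 at an unadjusted p under 0.05, while limma on FPKM called 1 higher), and the median log2 fold change was −0.23. Besides Myc, these included the hyaluronan receptor gene Cd44 (log2 fold change −0.62, SE 0.13, adjusted p = 0.00551 by edgeR) and Actb, cytoplasmic actin (−0.26, SE 0.09, adjusted p = 0.0428). The number called lower was between 3 and 5 under the other settings. The call of Actb was lost under 12 of 16 other settings, with adjusted p up to 0.164, among them library totals and each KO_BLM library left out. Igf2, the growth factor for which the family is named, was at 8.23 ± 0.620 CPM in KO_BLM and 10.9 ± 3.83 CPM in WT_BLM (SD, n = 4 each; log2 fold change −0.40, SE 0.23, adjusted p = 0.194 by edgeR), and was called without WT_BLM replicate 2 (−0.57, adjusted p = 0.0419).

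Fetal growth genes, many of them imprinted, showed 3 falls and 1 rise among 10 tested, a share near the 41.5% called among all tested genes, with a median log2 fold change of −0.26. Without WT_BLM replicate 2, 4 fell and 2 rose. H19 and Meg3 were not analysed here. Peg3, an imprinted zinc finger gene, had a log2 fold change of −2.07 (SE 0.39, adjusted p = 0.00279 by edgeR), Mest, an imprinted gene of mesoderm, of −1.30 (SE 0.22, adjusted p = 0.00183), and Grb10, an adaptor that restrains growth signals, of −0.51 (SE 0.11, adjusted p = 0.0054). Plagl1, an imprinted zinc finger factor, rose (0.79, SE 0.18, adjusted p = 0.00775 by edgeR). The other high mobility group genes, which code for unrelated HMGB and HMGN chromatin proteins, had 1 call among 7 tested, beside 41.5% of all tested genes. Hmgb3 fell (log2 fold change −0.53, SE 0.15, adjusted p = 0.0193 by edgeR), and the median of the list was −0.03. With library totals alone and on FPKM, 1 gene of that list rose, and without KO_BLM replicate 3 or WT_BLM replicate 4, 2 fell.

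Of 7 transcription factors of mesenchymal cells, edgeR called 3 lower and 0 higher, or 4 and 0 at an unadjusted p under 0.05. This share is near the 41.5% called among all tested genes in either direction, of which 20.8% were lower and 20.7% higher. With 7 genes, nothing is read from all the calls being lower. Twist1 was at 0.226 ± 0.153 CPM in KO_BLM and 1.68 ± 0.539 CPM in WT_BLM (SD, n = 4 each; log2 fold change −2.85, SE 0.52, adjusted p = 0.00248 by edgeR). It rests on 17 counts over the KO_BLM libraries, against 126 over the WT_BLM libraries, and passed the filter through WT_BLM alone. Prrx1, a factor of fibroblasts, had a log2 fold change of −1.55 (SE 0.21, adjusted p = 0.000541 by edgeR) and Snai1, a repressor of epithelial genes, of −0.91 (SE 0.09, adjusted p = 0.000114). Snai2 (0.22, adjusted p = 0.266 by edgeR) and Zeb1 (0.10, adjusted p = 0.371) were not called.

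The genes whose profile was most like that of Hmga2 were ranked by the root mean square difference of log2 CPM, centred on each gene's mean, over the 8 libraries and among 14014 genes. The nearest was Kcnt1, a sodium-activated potassium channel gene, at a difference of 0.43, with 0.572 ± 0.223 CPM in KO_BLM and 14.7 ± 5.67 CPM in WT_BLM (SD, n = 4 each). It was followed by Grem1, a secreted BMP antagonist, at 0.45, with 0.292 ± 0.118 CPM in KO_BLM and 8.61 ± 1.72 CPM in WT_BLM. Next were Gbx2, a homeobox gene, at 0.46, Dspp, known for its part in dentin, at 0.52, and Lrrc15, an activated fibroblast marker counted above, also at 0.52. Gbx2 had 3 counts over the KO_BLM libraries and 169 over the WT_BLM libraries, a scaled ratio of WT_BLM to KO_BLM of 55.6 with a counting interval of 18.7 to 272, and Dspp had 3 and 210, a ratio of 69.1 with an interval of 23.3 to 338. The measure is dominated by the difference between the groups, so it ranks genes mainly by how nearly they match the fold change of Hmga2.

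**Figure D5:**
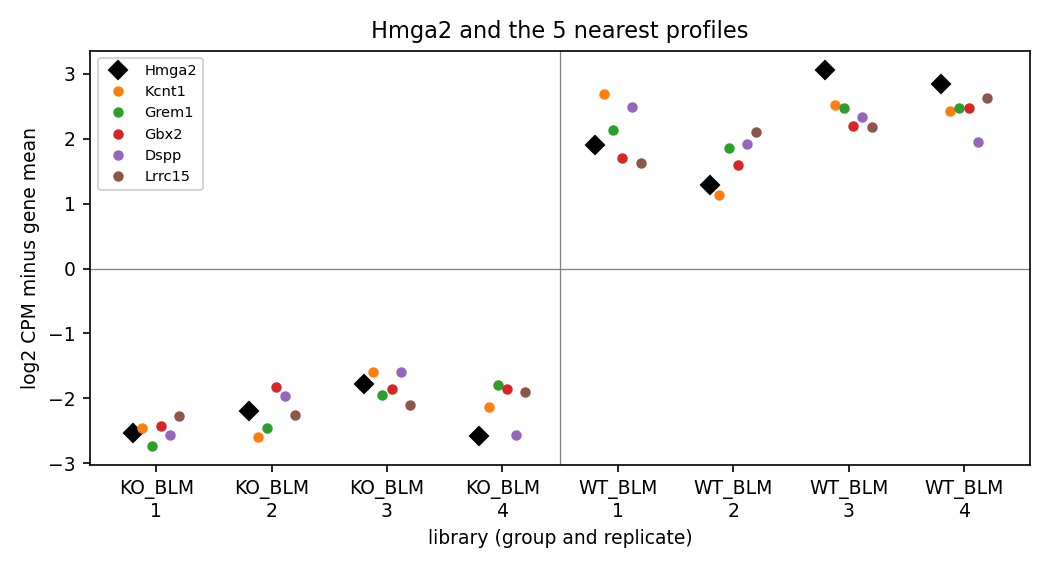
Log2 CPM minus the gene's mean over 8 libraries (vertical axis) for Hmga2 and the 5 genes nearest to it, in each KO_BLM library and then each WT_BLM library. All 6 genes lie below 0 in KO_BLM and above 0 in WT_BLM, and Hmga2 is highest in WT_BLM replicate 3.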

How the data were processed

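The deposited table holds, for each gene symbol, raw whole-number counts and FPKM values made by the authors. In 100% of genes the deposited FPKM could be recomputed from the count, its library's total and 1 length per gene (relative tolerance 1e-06), so FPKM is no separate measurement. Per the submitters' processing notes, Trimmomatic, HTSeq, Cufflinks and DESeq were used with the mm10 build. Per the labels' protocols, a stranded mRNA kit was used. Neither aligner nor annotation nor strand setting is named in those sources, so reads of overlapping genes may be shared. AI413582 overlaps Hmga1 and Malsu1 overlaps Igf2bp3 on the opposite strand. PHT2, another name of SLC15A3, heads the knockout columns, which were assigned by genotype and replicate number.

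Counts were tested with edgeR 4.0.16 in R 4.3.3 (TMM factors, filterByExpr with minimum count 10, robust quasi-likelihood fit, Benjamini-Hochberg at 0.05 over all tested genes). Standard errors were derived from the fold change and its F statistic. No libraries of a group agreed within sampling noise (chi-square over its degrees of freedom, 7.24 to 55.7). On simulated counts, with 67, 67 and 66 of 14662 genes changed 1.5-fold, 2-fold and 4-fold, the fit recovered 38.8%, 74.6% and 98.5% of them. Of its calls there 5.37% were false. In the data a far larger share, 41.5% of tested genes, was called, so these percentages need not carry over. A gene that was not called may still differ by a small amount. Poisson and binomial counting intervals are exact, at 95%. The genes, lists and rules were chosen with earlier results of these data known. Named from each list were up to 4 called genes of smallest p, plus Lin28a, Igf2, Slc15a3 and the 5 profiles nearest to Hmga2 (prior count 2), of which the text gives a selection. Outside this rule, Dicer1, Drosha, Dgcr8, Tut4, Snai2, Zeb1, Hmga1b, AI413582, Malsu1 and the let-7 targets so marked were named after their values were seen. UTRs came from GENCODE M21 and microRNAs from RefSeq, and 18695 symbols matched RefSeq. The alternatives were DESeq2 1.42.0, limma 3.58.1 on log2(FPKM + 1) and on log2(FPKM + 0.1), scaling by RLE or by library totals alone, a strict filter or none, replicate numbers as a block, and each library left out. Some listed genes are counted but not reported here by name.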

Additional observations from a re-analysis of the deposited data

Results flagged for a closer look

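Igf2bp1 was far higher in WT_BLM replicate 4 than in the other WT_BLM libraries, at 7.89 CPM against 4.26 to 4.50 CPM. The gap to the nearest of them was a share of 0.935 of the group's whole range, past Dixon's 95% critical value. Igf2bp3 was likewise highest in that library, at 0.871 CPM against 0.375 to 0.397 CPM, with a share of 0.956, but this rests on 16 counts. Chance flags about 1 in 20 groups, and 15 were examined over the 6 genes, Slc15a3 and Hmga1b, of which 2 were flagged.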

How the results depend on the processing

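Across 16 other settings, Hmga2, Hmga1, Igf2bp1 and Igf2bp2 had a lower mean in KO_BLM wherever fitted. With each library left out in turn, the log2 fold change ranged from −5.66 to −5.04 for Hmga2, from −1.18 to −0.90 for Hmga1, from −0.55 to −0.20 for Igf2bp1 and from −0.68 to −0.24 for Igf2bp2, and the log2 ratio of Igf2bp3 from −0.41 to 0.24. By limma on FPKM, Hmga2 was at −3.52 with a pseudocount of 0.1 and at −1.32 with 1, and Igf2bp1 at −0.12 with 1; a pseudocount shrinks the difference of a low gene. Among let-7 processing genes, 1 was higher with library totals alone; 4 were lower by DESeq2, 1 with library totals alone, 1 in each limma fit and 1 to 2 with a library left out. Among the other let-7 targets, 4 were higher with library totals alone and in each limma fit, and 2 to 4 with a library left out. Where no cause is named, the cause was not tested. The median log2 fold change of genes with a let-7 match was −0.03 for 8-base and −0.04 for 7-base matches. With the replicate number as a block, 2878 genes were higher and 2824 lower in KO_BLM. Same-numbered libraries did not deviate together (correlations from −0.09 to 0.09, and 0 of 4 KO_BLM libraries were closest to their own number). No pairing by number was thus seen, but a pairing with little effect on expression would look the same. The 5 profiles nearest to Hmga2 included 4 of the same genes with a prior count of 0.5. Of 63 named genes, 57 kept their direction and side of the threshold throughout. Most of them were named for a small p in this same contrast, so that count was largely set by the choice of genes. Depth limits Lin28b, Igf2bp3 and the KO_BLM level of Hmga2.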
